A study of Mus musculus with 92 samples.

Results

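The response to losing GABPB1 and GABPB2 together was set against the response to losing GABPB1 alone, gene by gene, in mouse embryonic stem cells, to ask how much of GABPB1's role GABPB2 can carry. For each gene the log2 fold change of 12 h dTAG-13 over DMSO was taken in each of the Gabpb1/b2 and Gabpb1 lines, and the difference between the lines is the Gabpb1/b2 response minus the Gabpb1 response, so that a negative difference marks a deeper fall, or a smaller rise, when GABPB2 was also degraded. Every gene that passed the filter on low counts was tested, 16396 in all, and 8 libraries of the 92 samples in the labels carry the contrast. The 152 genes with a lower difference (0.927% of those tested) and the 14 with a higher one (0.0854%) passed an adjusted p of 0.05 in edgeR's quasi-likelihood test.

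The cells were B6 mouse embryonic stem cells grown in serum with LIF and the inhibitors PD0325901 and CHIR99021, which hold such cells in a naive state. In the Gabpb1/b2 line both alleles of Gabpb1 and Gabpb2 carried a dTAG degron (genotype Gabpb1/b2dTAG/dTAG), and in the Gabpb1 line those of Gabpb1 alone did (Gabpb1dTAG/dTAG). Through such a degron, dTAG-13, a small bifunctional molecule, links the tagged protein to a ubiquitin ligase and so leads it to the proteasome, so it removes protein and leaves the gene in place. Each line was kept in 500 nM dTAG-13, or in DMSO as the solvent control, for 12 h before polyadenylated RNA-seq, with 2 libraries per group that the series' design calls biological duplicates. The lines therefore differ in the tag on Gabpb2 and in whatever else sets separate lines apart, the number of clones behind each is not given in the sources, and how far each protein fell was not measured in these files. Another line with the degron on Gabpa (GabpadTAG/dTAG) had 4 RNA-seq libraries treated alike, and 14 SLAM-seq libraries, for which RNA was labelled with 500 µM 4-thiouridine so that reads with T-to-C conversions mark newly made RNA. The SLAM-seq libraries were taken at 1, 2, 4 and 12 h of dTAG-13 and in 3 DMSO groups, of 1, 2 and 12 h, the 2 h group being the control of both the 2 h and the 4 h libraries. None of the Gabpa-line libraries enters the difference between the other lines, although all RNA-seq libraries share one estimate of spread.

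GA-binding protein is an ETS-family transcription factor built from unlike subunits. GABPA holds the ETS domain, which binds DNA at sites with a GGAA core, while GABPB1 and its paralog GABPB2 bind GABPA through ankyrin repeats and carry the activation domain and nuclear localization signal. The complex is best known for promoters of housekeeping genes, among them genes for mitochondrial function, ribosome assembly and cell-cycle entry, and paralogs of this kind can fill in for each other.

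Promoters are shown for 6 of the genes with a strongly lower difference, since a GABP-type core is the sequence that most of these genes share. The core searched was CCGGAAG, or CTTCCGG when read from the other strand, in RefSeq windows from 250 bases before to 50 after each annotated start (GRCm38.p6). Matches are in capitals, and the same letters read on either strand, including matches that overlap, are counted separately. Kti12 (chr4:108847607-108847906, plus strand) held 2 matches in opposite orientation, 25 and 12 bases before the start. The Usp11 match (chrX:20703659-20703958, plus strand) lay 11 bases before the start, that of Exosc3 (chr4:45320567-45320866, minus strand) 2 bases before it and that of Exoc3 (chr13:74208651-74208950, minus strand) 1 base after it. Ngrn (chr7:80260965-80261264, plus strand) held 3 matches in 1 orientation, and Minpp1 (chr19:32485519-32485818, plus strand) is shown as a gene with a large difference and no match.
Kti12: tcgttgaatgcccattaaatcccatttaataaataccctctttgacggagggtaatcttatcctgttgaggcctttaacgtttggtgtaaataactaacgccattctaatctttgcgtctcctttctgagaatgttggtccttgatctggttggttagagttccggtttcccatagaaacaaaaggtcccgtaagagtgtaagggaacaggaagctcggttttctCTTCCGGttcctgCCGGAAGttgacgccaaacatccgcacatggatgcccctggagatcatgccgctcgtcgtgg
Usp11: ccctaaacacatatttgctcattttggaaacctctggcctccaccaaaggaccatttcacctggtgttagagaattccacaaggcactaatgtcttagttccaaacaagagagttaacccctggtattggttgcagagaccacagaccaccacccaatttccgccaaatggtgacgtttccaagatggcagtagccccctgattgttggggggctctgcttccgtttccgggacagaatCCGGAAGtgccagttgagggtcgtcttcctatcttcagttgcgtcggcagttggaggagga
Exosc3: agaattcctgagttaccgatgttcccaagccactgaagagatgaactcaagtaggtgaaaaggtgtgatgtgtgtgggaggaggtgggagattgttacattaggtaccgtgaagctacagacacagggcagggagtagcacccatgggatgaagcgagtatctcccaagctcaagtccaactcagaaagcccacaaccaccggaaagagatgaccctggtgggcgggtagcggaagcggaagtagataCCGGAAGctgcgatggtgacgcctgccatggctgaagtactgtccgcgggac
Exoc3: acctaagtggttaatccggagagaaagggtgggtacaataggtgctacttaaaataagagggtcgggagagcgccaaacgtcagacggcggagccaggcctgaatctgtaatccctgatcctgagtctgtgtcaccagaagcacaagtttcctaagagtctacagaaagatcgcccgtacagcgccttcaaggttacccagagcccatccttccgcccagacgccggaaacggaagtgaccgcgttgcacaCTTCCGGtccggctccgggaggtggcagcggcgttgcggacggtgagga
Ngrn: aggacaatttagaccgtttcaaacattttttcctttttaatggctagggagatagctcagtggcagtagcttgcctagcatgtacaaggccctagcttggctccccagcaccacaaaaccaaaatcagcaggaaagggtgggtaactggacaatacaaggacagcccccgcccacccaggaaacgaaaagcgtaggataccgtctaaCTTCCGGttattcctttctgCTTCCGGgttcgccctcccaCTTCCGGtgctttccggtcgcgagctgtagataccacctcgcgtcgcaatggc
Minpp1: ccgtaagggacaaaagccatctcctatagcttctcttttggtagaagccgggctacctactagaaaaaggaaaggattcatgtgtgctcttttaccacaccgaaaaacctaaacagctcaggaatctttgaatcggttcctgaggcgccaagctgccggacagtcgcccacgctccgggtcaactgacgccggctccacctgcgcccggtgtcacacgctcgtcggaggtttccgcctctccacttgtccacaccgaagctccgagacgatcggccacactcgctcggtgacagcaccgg
Among genes whose log2 CPM averaged 3 or more, with predicted genes and copies left out, 84 of the 109 matched promoters of lower genes (77.1%) held at least 1 core and 36.7% held at least 2. The shares were 22.9% and 4.57% over the 7445 matched promoters of all genes tested under the same limits, and 8.86% and 1.48% over all 32851 windows. Genes that fell over 2-fold in the Gabpa line without a called difference also held the core often, in 57.6% and 18.2% of 472 matched promoters under the same limits, and the gap to the lower genes was not tested. Of the 9 matched promoters of higher genes, 0 held the core. Of all 152 lower genes 120 had a promoter entry (78.9%), too few for a count over the whole set, so the shares stand for the better-expressed genes only. A match describes the letters and shows no binding.

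Library totals ran from 16.0 to 32.1 M counts. Duplicates of every group were further apart than sampling alone gives, with chi-square over degrees of freedom at 16.1 in the Gabpb1/b2 DMSO group and 3.12 to 6.56 in the other 5. Stem cell markers were high throughout, at a summed 3957 to 4090 CPM in the Gabpb1/b2 line and 4160 to 4227 CPM in the Gabpb1 line, with 0 of 7 listed at 0. The untreated lines were not alike, since 2462 genes were lower and 2456 higher in the Gabpb1/b2 than in the Gabpb1 DMSO libraries (15% each way). Of the 2-cell-like genes, which mark a rare early-embryo-like state, the 18 in the files summed to 21.9 to 28.9 CPM in the Gabpb1/b2 line and to 0.846 to 1.41 CPM in the Gabpb1 line, and mitochondrial transcripts made up 2.42% to 3.41% against 2.24% to 2.33% of counts. Feeder fibroblast markers summed to 2240 to 2525 CPM against 2726 to 3080 CPM, nearly all from Fn1 and Vim, and 3 to 7 of the 18 were at 0. The Gabpa line, used below for comparison, also differed. Its mitochondrial share was 0.854% to 1.10% and its stem cell markers summed to 4667 to 5027 CPM. Untreated, it held 48.9 and 46.4 CPM of Gabpa mRNA, against 142 and 143 CPM in the Gabpb1 line and 144 and 161 CPM in the Gabpb1/b2 line. The part that such differences between the lines play in the results was not tested. In bulk RNA, fewer cells of a kind and less RNA per cell cannot be told apart.

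The mRNAs of the 3 subunits themselves were not called in the difference, and all rose with dTAG-13 in the Gabpb1/b2 line. Gabpb2, the paralog that carries the degron only in that line, stood at 63.0 and 58.8 CPM in its dTAG-13 libraries and at 44.9 and 49.7 CPM in its DMSO libraries, against 104 and 99.9 CPM in the dTAG-13 and 89.4 and 93.2 CPM in the DMSO libraries of the Gabpb1 line. Thus the untreated Gabpb1/b2 cells already held less Gabpb2 mRNA, with no overlap between the lines and a log2 difference of -0.95 ± 0.07 (SE; adjusted p = 7.34e-08). Gabpb2 mRNA rose by 0.37 ± 0.08 on the log2 scale with dTAG-13 in the Gabpb1/b2 line, whereas the value of 0.16 ± 0.07 in the Gabpb1 line did not pass (adjusted p = 0.216). Gabpb1 rose by 0.92 ± 0.10 and 0.74 ± 0.10 in the Gabpb1/b2 and Gabpb1 lines, and Gabpa by 0.60 ± 0.07 and 0.38 ± 0.07. The differences were 0.21 ± 0.10 for Gabpb2, 0.17 ± 0.14 for Gabpb1 and 0.21 ± 0.10 for Gabpa (adjusted p = 0.638, 0.878 and 0.575). Per transcript length, the deposited TPM averaged 9.91 for Gabpb2 and 25.8 for Gabpb1 in untreated Gabpb1/b2 cells, and 17.2 and 25.6 in untreated Gabpb1 cells. Gabpa, Gabpb1 and Gabpb2 each overlap a gene on the other strand (Atp5j, Gm27003 and Gm16740), and the sources do not say whether counting used strand.

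Taken separately, 1519 genes fell and 578 rose in the Gabpb1/b2 line (9.26% and 3.53%), and 896 fell and 210 rose in the Gabpb1 line (5.46% and 1.28%). The 719 genes that fell in both make up 47.3% of the Gabpb1/b2 falls and 80.2% of the Gabpb1 falls, and the 105 that rose in both make up 18.2% and 50% of the rises. A gene called in 1 line only is not thereby shown to differ, which is what the direct test of the difference addresses. That test found 47 genes lower and 8 higher by over 2-fold, and 1346 genes of either sign at an unadjusted p under 0.05. For 0 of the 152 lower genes did the dTAG-13 over DMSO ratios of the lines overlap, taking each dTAG-13 library over each DMSO library. Leaving out 1 library could therefore hardly change a sign, and nothing is read from signs kept. The number of calls was sensitive to single libraries. With 1 library left out it ran from 84 lower genes, without the first Gabpb1/b2 dTAG-13 library, to 284, without the second Gabpb1/b2 DMSO library, and was 88 to 97 when any 1 of the 4 Gabpb1 libraries was left out, while all 152 lower genes kept their sign. The calls in both directions within a line, 2097 in the Gabpb1/b2 line and 1106 in the Gabpb1 line, ran from 1162 to 2551 and from 341 to 1617. They were 1162 and 1239 without the first and second Gabpb1/b2 dTAG-13 library, and in the Gabpb1 line 341 to 417 when any 1 of its own libraries was left out. With limma's sample quality weights the order of the lines turned, with 1558 calls in the Gabpb1/b2 line and 3045 in the Gabpb1 line.

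**Figure D1:**
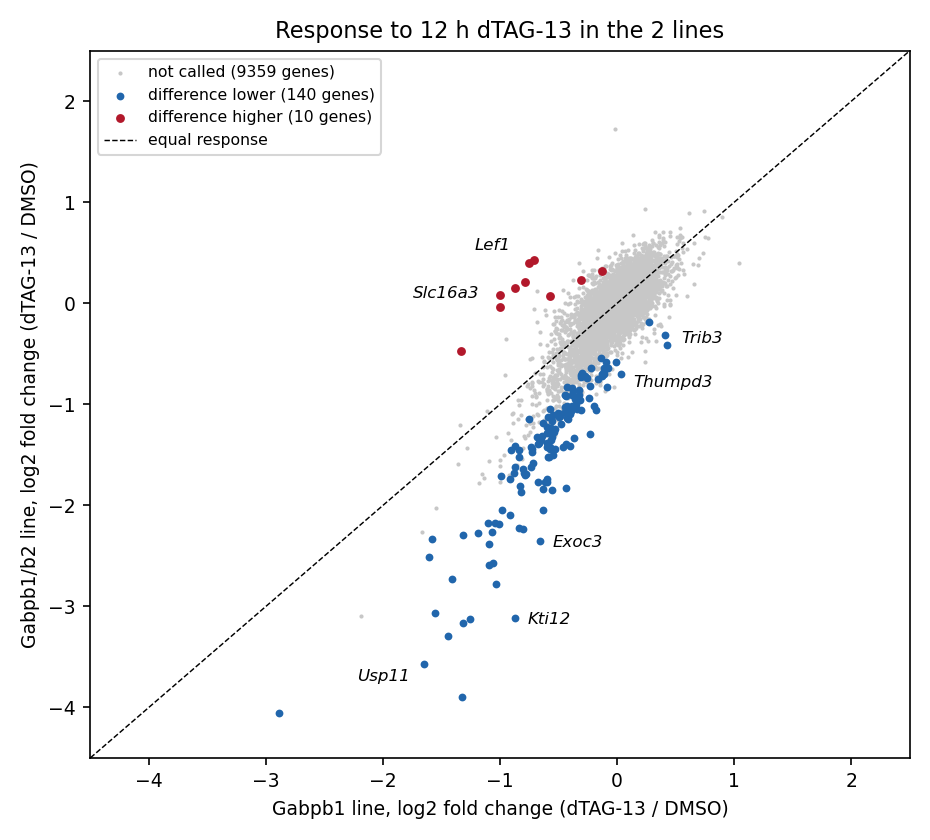
Log2 fold change of 12 h dTAG-13 over DMSO in the Gabpb1 line (x axis) and the Gabpb1/b2 line (y axis) for the 9509 genes whose log2 CPM averaged 3 or more, of which 4 lie outside the axes. The 140 genes with a lower difference lie below the dashed line of equal response, most of them in the quadrant where both lines are below 0, and the 10 with a higher difference lie left of 0 and above the line.

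The 152 lower genes were mainly genes that lost RNA in both lines and lost more in the Gabpb1/b2 line. Their median difference was -0.75, with median responses of -1.36 in the Gabpb1/b2 line and -0.56 in the Gabpb1 line. By the test of each response, 149 of them fell in the Gabpb1/b2 line, and in the Gabpb1 line 121 fell, 7 rose and 24 were not called; these responses are parts of the difference that chose the genes and so lend it no support. Before treatment their median DMSO difference between the lines was -0.03, in a range of -1.11 to 9.14. Of the 152, 23 were called lower and 11 higher in the untreated Gabpb1/b2 line (15.1% and 7.24%, against 15% of all genes each way). The DMSO libraries are also part of the difference that chose the genes, so nothing is read from these counts. Of the 152, 140 averaged 3 or more in log2 CPM and 12 were below that level. The dTAG-13 over DMSO ratios of the lines overlapped for 0 of the 152. Nothing is read from this, since the same libraries chose the genes. As predicted genes, clones or copies, 11 were left unnamed, among them Pgk1-rs7, a copy of Pgk1 whose reads cannot be placed with certainty.

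Kti12, an Elongator-associated factor for the modification of wobble uridines in tRNA, had the largest difference of the genes chosen by the naming rule, which leaves out copies such as Pgk1-rs7. It stood at 2.55 and 2.75 CPM in dTAG-13 and 23.4 and 22.3 CPM in DMSO libraries of the Gabpb1/b2 line, and at 13.2 and 12.5 CPM in dTAG-13 and 22.9 and 24.1 CPM in DMSO libraries of the Gabpb1 line. The DMSO libraries of the lines overlapped, and all 4 dTAG-13 libraries were below them, those of the Gabpb1/b2 line far below. On the log2 scale the response was -3.11 ± 0.12 (SE) in the Gabpb1/b2 line and -0.87 ± 0.09 in the Gabpb1 line, a difference of -2.24 ± 0.16 (adjusted p = 1.05e-06). Kti12 (mm39, chr4:108704982-108706610, plus strand) overlaps Txndc12 on the same strand, so reads could be shared between these genes.

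Usp11, an X-linked deubiquitinating enzyme (mm39, chrX:20570145-20586778, plus strand), combined a deep fall after loss of GABPB1 alone with a further one. Its levels were 4.57 and 4.97 CPM in dTAG-13 and 56.3 and 56.8 CPM in DMSO libraries of the Gabpb1/b2 line, and 16.6 and 14.4 CPM in dTAG-13 and 48.0 and 49.7 CPM in DMSO libraries of the Gabpb1 line. No groups overlapped, and the difference was -1.92 ± 0.14 (adjusted p = 1.05e-06) between responses of -3.57 ± 0.10 and -1.65 ± 0.08.

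Exosc3, a cap subunit of the RNA exosome, which degrades and trims nuclear and cytoplasmic RNA, behaved likewise. It had 3.73 and 3.41 CPM in dTAG-13 and 33.0 and 29.4 CPM in DMSO libraries of the Gabpb1/b2 line, against 11.7 and 12.2 CPM and 28.4 and 28.7 CPM in those of the Gabpb1 line. The difference was -1.87 ± 0.15 (adjusted p = 2.32e-06). Exosc3 was the sole member called among the 14 exosome genes tested (7.14%, against 0.927% of all genes called lower), whose median difference was -0.02. Exosc3 (mm39, chr4:45316613-45342732, minus strand) overlaps Dcaf10 on the other strand.

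Exoc3, a subunit of the exocyst, which tethers secretory vesicles to the plasma membrane, had 6.92 and 8.32 CPM in dTAG-13 and 36.3 and 41.4 CPM in DMSO libraries of the Gabpb1/b2 line, and 27.4 and 28.9 CPM in dTAG-13 and 44.9 and 44.2 CPM in DMSO libraries of the Gabpb1 line. Its response was -2.35 ± 0.11 in the Gabpb1/b2 line and -0.66 ± 0.08 in the Gabpb1 line, with a difference of -1.69 ± 0.14 (adjusted p = 2.76e-06). The other 9 exocyst genes were not called, so 10% of the 10 were lower, against 0.927% of all genes. Of the 10, 90% lay below 0, against 49.9% of all genes, with a median of -0.07.

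Dlst and Idh3b, both enzymes of the citrate cycle, were named for their small p. Dlst, the succinyltransferase of the 2-oxoglutarate dehydrogenase complex, had 23.7 and 25.8 CPM in dTAG-13 and 89.3 and 88.8 CPM in DMSO libraries of the Gabpb1/b2 line, and 80.5 and 78.3 CPM in dTAG-13 and 116 and 118 CPM in DMSO libraries of the Gabpb1 line. It was already lower in the untreated Gabpb1/b2 cells (log2 difference of -0.39 ± 0.07), and the difference between responses was -1.29 ± 0.11 (adjusted p = 4.05e-06). Idh3b, a subunit of the NAD-dependent isocitrate dehydrogenase, had a difference of -0.92 ± 0.09 (adjusted p = 2.42e-05) and overlaps Nop56 on the other strand. Ngrn, which is needed for the mitochondrial ribosome's large-subunit RNA, had one of -1.43 ± 0.16 (adjusted p = 9.80e-05), with 8.40 and 8.14 CPM in dTAG-13 and 43.3 and 34.4 CPM in DMSO libraries of the Gabpb1/b2 line against 13.9 and 14.3 CPM and 24.5 and 24.7 CPM in those of the Gabpb1 line. Before treatment Ngrn was higher in the Gabpb1/b2 line, by 0.66 ± 0.10.

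Ppid, the cyclophilin that partners HSP90, had close duplicates in each group, at 49.8 and 48.7 CPM in dTAG-13 and 168 and 168 CPM in DMSO libraries of the Gabpb1/b2 line, and 103 and 103 CPM in dTAG-13 and 159 and 158 CPM in DMSO libraries of the Gabpb1 line. The difference was -1.15 ± 0.09 (adjusted p = 2.02e-06).

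The remaining genes named by smallest p differed by -1.01 to -1.85. They were Nek9, a mitotic kinase, Cops7a, a subunit of the COP9 signalosome, Thoc5, part of the THO mRNA export complex, Itpa, which clears inosine triphosphate, Eaf1, a partner of ELL elongation factors, Mettl6, a tRNA methyltransferase, and Minpp1, an inositol polyphosphate phosphatase. Minpp1 was the furthest of them, with responses of -3.29 ± 0.13 in the Gabpb1/b2 line and -1.44 ± 0.10 in the Gabpb1 line, and Eaf1 the nearest to 0, with -1.42 ± 0.07 and -0.40 ± 0.07. Eaf1 and Mettl6 start from opposite strands and overlap each other, so their values are not independent if counting ignored strand. Etv3, an ETS-family repressor, was named for the size of its difference, -1.85 ± 0.22 (adjusted p = 1.46e-04), with 2.21 and 2.51 CPM in dTAG-13 and 20.8 and 21.4 CPM in DMSO libraries of the Gabpb1/b2 line against 10.5 and 8.01 CPM and 24.6 and 21.3 CPM in those of the Gabpb1 line. It was the sole ETS gene called of 18 tested (5.56%, against 0.927% of all genes called lower).

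**Figure D2:**
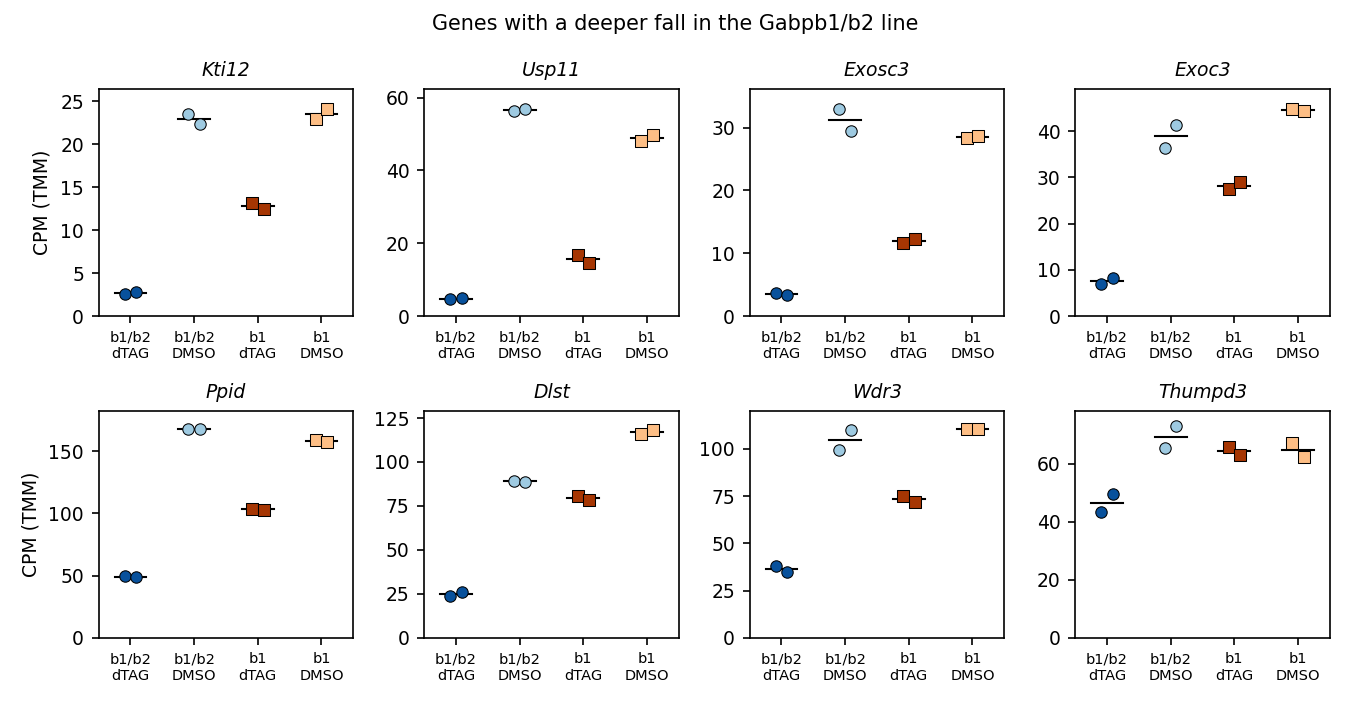
CPM of 8 genes with a lower difference in each library, with the 2 libraries of a group as points and their mean as a bar; b1/b2 and b1 stand for the Gabpb1/b2 and Gabpb1 lines. In each panel the dTAG-13 libraries of the Gabpb1/b2 line are the lowest, and for Thumpd3 the dTAG-13 and DMSO libraries of the Gabpb1 line overlap.

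Gene lists for the processes GABP is known for differed in how many members were called, to be read against 0.927% lower among all genes tested, while their medians were near the median of 0.00 over all genes, of which 49.9% were below 0. Among 62 ribosome assembly factors, 6 were lower (9.68%) and 0 higher, with a median of -0.03. Wdr3, a factor of the small-subunit processome, had 38.0 and 34.8 CPM in dTAG-13 and 99.6 and 110 CPM in DMSO libraries of the Gabpb1/b2 line and 74.9 and 71.7 CPM in dTAG-13 and 111 and 111 CPM in DMSO libraries of the Gabpb1 line, a difference of -0.93 ± 0.11 (adjusted p = 1.24e-04). Ebna1bp2 and Rpf1, both needed for the large subunit, differed by -0.79 ± 0.10 and -0.71 ± 0.14, and Rpf2, Nip7 and Rrp12 were also lower. The 79 cytosolic ribosomal protein genes had 0 calls either way and a median of 0.01.

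The mitochondrial lists held fewer calls. Of 79 mitochondrial ribosome genes 2 were lower (2.53%, against 0.927% of all genes), Mrpl53 at -1.21 ± 0.16 and Mrpl27 at -1.19 ± 0.16 (adjusted p = 5.01e-04 and 6.49e-04), and the list's median was -0.01. Of 51 genes for mitochondrial DNA expression and import 1 was lower (1.96%), Timm23, the channel of the inner-membrane translocase, at -0.63 ± 0.09 (adjusted p = 7.15e-04). The 75 respiratory chain subunits and 21 mitochondrial tRNA synthetases had 0 calls, with medians of -0.01 and -0.06. Of 13 genes reported in the literature as GABP targets, among them Cox4i1, Tfam and Tfb1m, 0 were called, and their differences ran from -0.18 to 0.21. With 0.927% of all genes lower, a list of 13 would rarely hold a call, so nothing is read from the 0. In the Gabpa line 6 of the 13 fell (46.2%, against 21.9% of all genes), with a median of -0.08. In the Gabpb1/b2 line 1 fell (7.69%, against 9.26%) and in the Gabpb1 line 0 (against 5.46%).

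Of 40 proteasome genes 3 were lower (7.5%, against 0.927% of all genes), with a list median of 0.04. Pomp, the chaperone that assembles the 20S core, differed by -0.82 ± 0.11, and the core subunits Psmb4 and Psma6 by -0.45 ± 0.09 and -0.42 ± 0.10 (adjusted p = 8.92e-04, 0.0255 and 0.0479). In 4 further lists 1 or 2 members were lower. They were Kti12 and Thumpd3 among 59 tRNA modification genes, Ercc3 among 21 of TFIIH and excision repair, Rfc2, a clamp-loader subunit, among 53 of DNA replication, and Wdr24, part of the GATOR2 regulator of mTORC1, among 35 lysosomal and mTORC1 genes. The 17 Integrator and 29 naive pluripotency genes had 0 calls, with medians of -0.02 and 0.02. There were likewise 0 calls among 15 heat shock chaperone, 23 immediate early, 17 lineage marker, 11 feeder fibroblast and 13 2-cell-like genes tested, with medians of 0.08, 0.03, 0.17, 0.07 and -0.11.

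Thumpd3, a tRNA guanine methyltransferase, showed a fall in the Gabpb1/b2 line beside no detectable change in the Gabpb1 line. It had 43.2 and 49.7 CPM in dTAG-13 and 65.5 and 73.0 CPM in DMSO libraries of the Gabpb1/b2 line, and 65.6 and 62.9 CPM in dTAG-13 and 67.0 and 62.3 CPM in DMSO libraries of the Gabpb1 line. The responses were -0.58 ± 0.08 (adjusted p = 1.21e-04) and -0.01 ± 0.08 (adjusted p = 0.980), with a difference of -0.57 ± 0.12 (adjusted p = 0.0197). Without the first Gabpb1/b2 dTAG-13 library its call was lost, as were those of Rpf1, Psmb4, Psma6, Ercc3, Rfc2 and Wdr24, and over the settings tried the adjusted p reached 0.154 for Thumpd3 and 0.266 for Psma6.

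How these genes behaved without GABPA was read from the Gabpa line, whose libraries do not enter the difference. Of the 152 lower genes, 144 fell there at 12 h (94.7%, against 21.9% of all genes tested) and 0 rose (against 24.6%). Their median response was -1.36 in the Gabpb1/b2 line, -0.56 in the Gabpb1 line and -2.61 in the Gabpa line. The choice of genes set the Gabpb1/b2 value below the Gabpb1 value for all 152, so only the place of the Gabpa-line value was free. The Gabpa-line value was the lowest for 134 of the 152, while 18 were lower in the Gabpb1/b2 than in the Gabpa line. The distance between the Gabpb1/b2 and Gabpa lines varied between genes. Usp11 responded by -3.57 ± 0.10 in the Gabpb1/b2 line and by -4.46 ± 0.13 in the Gabpa line, whereas Ercc3, the XPB helicase of TFIIH, responded by -0.86 ± 0.07 and -4.26 ± 0.10, Wdr24 by -0.99 ± 0.09 and -4.68 ± 0.14 and Exoc3 by -2.35 ± 0.11 and -5.83 ± 0.16.

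**Figure D3:**
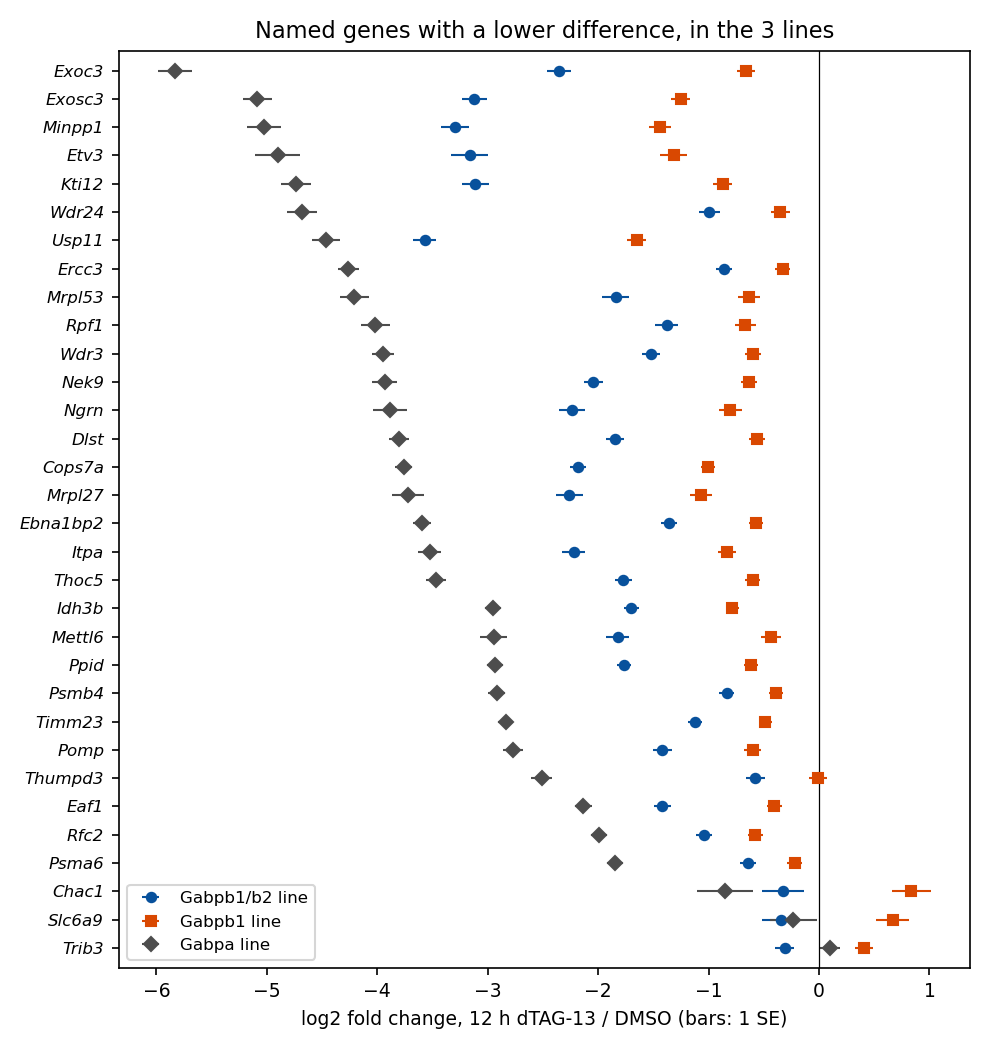
Log2 fold change of 12 h dTAG-13 over DMSO for the named genes with a lower difference, in the Gabpb1/b2 line (circles), the Gabpb1 line (squares) and the Gabpa line (diamonds), with 1 SE. Except for Slc6a9 and Trib3 at the bottom, the Gabpb1/b2 value lies between the values of the other lines for each gene. The genes were chosen with the Gabpb1/b2 value below the Gabpb1 value, so only the place of the Gabpa value was free.

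New RNA of the Gabpa line gave the time at which a fall of these genes was first called. Converted reads numbered 0.94 to 1.14 M per library at 1 h and 1.78 to 4.25 M at 12 h. The depth for a call thus differed between times, and a first call is not a time of onset. Of the 144 lower genes measured in SLAM-seq, 47 fell at 1 h, 83 at 2 h, 94 at 4 h and 129 at 12 h of dTAG-13 (32.6%, 57.6%, 65.3% and 89.6%), against 1.72%, 3.21%, 3.91% and 18.3% of all 15887 genes tested. At each of these times 0 of them rose, against 0.0567%, 0.145%, 0.113% and 12.3% of all genes tested. Called or not, 128 of the 144 were below 0 at 1 h, with a median of -0.81. Of the 12609 RNA-seq genes measured in new RNA 6192 were, with a median of 0.01. Grouped by the first time of a called fall, a lower difference was found in 18.6% of 253 genes at 1 h, 13.4% of 291 at 2 h and 8.28% of 169 at 4 h. The share was 1.72% of 1807 genes at 12 h and 0.129% of 10089 with no called fall, which include genes that rose. New Kti12 RNA fell by 2.47 at 1 h on the log2 scale (adjusted p = 2.51e-05) and by 5.46 at 12 h. New Thumpd3 RNA fell by 1.56 at 1 h (adjusted p = 3.79e-05). Usp11 was not called at any time in new RNA, with values of 0.25 at 1 h and -0.24 at 12 h, from 0 to 27 converted reads per library, which leaves little depth.

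All genes that fell over 2-fold in the Gabpa line, 1280 in number, served to size the added effect on a set chosen without the libraries of the difference. Their median response was -0.64 in the Gabpb1/b2 line, -0.37 in the Gabpb1 line and -1.60 in the Gabpa line, so that on the log2 scale joint loss gave 40.0% ± 0.79 and loss of GABPB1 alone 23.0% ± 0.49 of the median fall without GABPA (SD over the 4 pairings of 2 dTAG-13 with 2 DMSO libraries). The 4 pairings share libraries and were all divided by the same Gabpa-line median, so this SD leaves out the spread of the Gabpa line. That median is also taken over genes chosen for their fall in the Gabpa line. Between the pairings the medians ran from -0.66 to -0.62 in the Gabpb1/b2 line and from -0.38 to -0.36 in the Gabpb1 line, without overlap. Of the 1280, 850 fell in the Gabpb1/b2 line (66.4%, against 9.26% of all genes) and 536 in the Gabpb1 line (41.9%, against 5.46%). A called fall was missing from both lines for 411. The calls within a line were sensitive to single libraries, as given above. The fitted response was lower in the Gabpb1/b2 than in the Gabpb1 line for 84.5% of the 1280, against 49.9% of all genes. In the test of the difference 139 were lower (10.9%, against 0.927% of all genes) and 1 was higher.

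The deeper the fall in the Gabpa line, the more often the difference passed. It was lower in 3.45% of the 869 genes with a Gabpa-line response of -1 to -2, in 20.7% of 280 at -2 to -3, in 35.8% of 81 at -3 to -4 and in 44% of 50 below -4. Larger changes are easier to call, so the medians are given beside these shares. In the same order of classes they were -0.52, -1.003, -1.58 and -1.80 in the Gabpb1/b2 line and -0.31, -0.50, -0.78 and -0.67 in the Gabpb1 line. Genes that rose over 2-fold in the Gabpa line, 1125 in number, had medians of 0.30 and 0.25 in the Gabpb1/b2 and Gabpb1 lines, and 0 of them had a lower and 1 a higher difference.

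**Figure D4:**
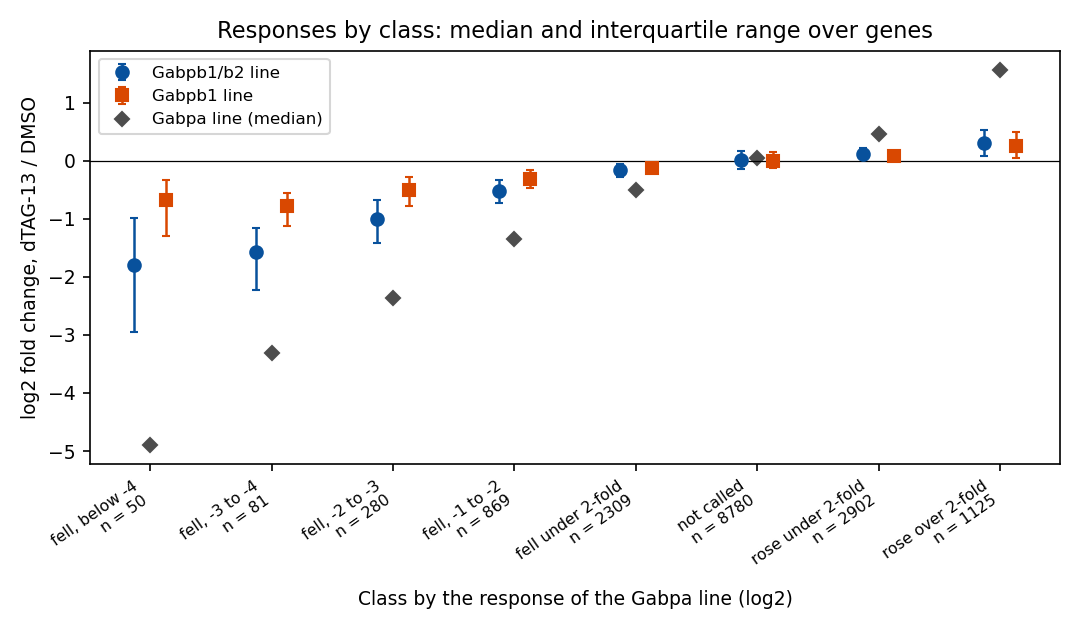
Median log2 fold change of 12 h dTAG-13 over DMSO in the Gabpb1/b2 line (circles) and the Gabpb1 line (squares), with the interquartile range over genes, by class of response in the Gabpa line, whose medians are diamonds. In the 4 classes that fell over 2-fold the Gabpb1/b2 median is the lower of the pair, and in the class that rose over 2-fold the medians are 0.30 and 0.25.

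A separate pattern came from genes of the integrated stress response, the programme that ATF4 drives under amino acid shortage and other stress. Of 40 such genes tested 3 were lower (7.5%, against 0.927% of all genes) and 0 higher, the median difference was -0.24, and 97.5% of them were below 0, against 49.9% of all genes. In the Gabpb1/b2 line 12 of them fell (30%, against 9.26% of all genes) and 1 rose (2.5%, against 3.53%). In the Gabpb1 line 1 fell (2.5%, against 5.46%) and 5 rose (12.5%, against 1.28%). In the Gabpa line 17 of the 40 fell (42.5%, against 21.9%), and the list's median response was -0.19 in the Gabpb1/b2 line, 0.07 in the Gabpb1 line and -0.23 in the Gabpa line. Trib3, a pseudokinase induced by ATF4, had 24.8 and 21.3 CPM in dTAG-13 and 29.5 and 27.9 CPM in DMSO libraries of the Gabpb1/b2 line, and 37.5 and 37.8 CPM in dTAG-13 and 28.1 and 28.6 CPM in DMSO libraries of the Gabpb1 line. It fell by 0.31 ± 0.09 on the log2 scale in the Gabpb1/b2 line and rose by 0.41 ± 0.08 in the Gabpb1 line, a difference of -0.72 ± 0.12 (adjusted p = 0.00455). Chac1, which breaks down glutathione, rose by 0.84 ± 0.18 in the Gabpb1 line, its value in the Gabpb1/b2 line was -0.33 ± 0.19 (adjusted p = 0.309), and the difference was -1.17 ± 0.26 (adjusted p = 0.0420). The glycine transporter gene Slc6a9 did likewise, with 0.67 ± 0.15 in the Gabpb1 line and -0.35 ± 0.17 (adjusted p = 0.218) in the Gabpb1/b2 line. Atf4 itself had a difference of -0.28 that was not called (adjusted p = 0.160). In RNA-seq of the Gabpa line Chac1 fell by 0.85 ± 0.25, while Trib3 at 0.09 ± 0.09 and Slc6a9 at -0.23 ± 0.21 were not called. New Trib3 and Chac1 RNA fell by 1.41 and 2.67 at 12 h of dTAG-13 in that line (adjusted p = 2.10e-05 and 6.61e-07) and were not called earlier. Chac1 and Slc6a9 lost their call when any of the 4 Gabpb1 libraries was left out, with adjusted p up to 0.192 and 0.235 over the settings tried, and Trib3 kept its call in each.

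Cholesterol and fatty acid synthesis lay on the other side of 0 without a call in any single gene. Of 33 genes 0 were called, the median difference was 0.24, and 9.09% were below 0. In the Gabpb1/b2 line 28 of the 33 rose (84.8%, against 3.53% of all genes), and in the Gabpb1 line 11 did (33.3%, against 1.28%). The difference of Sqle, the squalene epoxidase, was 0.33 (adjusted p = 0.394). The 36 p53 targets also had 0 calls, with a median of 0.08.

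The 14 higher genes were chosen for a positive difference, into which the Gabpb1 response enters with a minus sign. All 14 had a response below 0 in the Gabpb1 line, with a median of -0.94 and 11 of them called as falls, while the median in the Gabpb1/b2 line was 0.28. In the Gabpa line 2 fell, 2 rose and 10 were not called, where 21.9% of all genes fell and 24.6% rose. Before treatment 9 of the 14 were lower in the Gabpb1/b2 than in the Gabpb1 line, 1 was higher and 4 were not called, where 15% of all genes were called each way. These DMSO libraries and responses are parts of the difference that chose the 14 genes, so nothing is read from the counts.

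Lef1, a transcription factor of the Wnt pathway, was higher with the smallest p of the named higher genes. It had 34.4 and 37.1 CPM in dTAG-13 and 25.7 and 28.5 CPM in DMSO libraries of the Gabpb1/b2 line, and 7.25 and 5.71 CPM in dTAG-13 and 10.96 and 10.84 CPM in DMSO libraries of the Gabpb1 line. Lef1 thus rose in the Gabpb1/b2 line (0.40 ± 0.11) and fell in the Gabpb1 line (-0.75 ± 0.13), with a difference of 1.16 ± 0.17 (adjusted p = 0.00144). Its level in untreated cells was also higher in the Gabpb1/b2 line, by 1.31 ± 0.12. It was the only one called among 16 formative and primed pluripotency genes (6.25%, against 0.0854% of all genes called higher). The median difference of the 16 was 0.21.

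Ndrg1, a differentiation and stress gene, had 7.37 and 6.64 CPM in dTAG-13 and 6.68 and 6.61 CPM in DMSO libraries of the Gabpb1/b2 line, and 8.87 and 8.98 CPM in dTAG-13 and 16.4 and 19.2 CPM in DMSO libraries of the Gabpb1 line. The untreated Gabpb1 libraries stood apart from the other 6. Slc16a3, the lactate exporter MCT4, showed the same layout, with 78.8 and 69.9 CPM in dTAG-13 and 80.2 and 71.9 CPM in DMSO libraries of the Gabpb1/b2 line against 67.8 and 66.7 CPM in dTAG-13 and 129 and 140 CPM in DMSO libraries of the Gabpb1 line. Their differences were 1.08 ± 0.19 and 0.97 ± 0.21 (adjusted p = 0.00538 and 0.0360).

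Egln3 and Egln1, prolyl hydroxylases that mark HIF-alpha for degradation, differed by 1.14 ± 0.19 and 0.64 ± 0.14. Bnip3, a mitophagy receptor, differed by 1.00 ± 0.18, with 47.5 and 42.9 CPM in dTAG-13 and 35.5 and 42.8 CPM in DMSO libraries of the Gabpb1/b2 line, and 18.2 and 18.9 CPM in dTAG-13 and 30.8 and 33.0 CPM in DMSO libraries of the Gabpb1 line. Unlike Ndrg1 and Slc16a3, it was not called between the untreated lines (0.29 ± 0.13, adjusted p = 0.0988). Pfkfb3, which sets the level of a glycolytic activator, differed by 1.03 ± 0.20, Igfbp4, a binder of insulin-like growth factors, by 0.87 ± 0.19, Ina, an intermediate filament gene, by 0.54 ± 0.12 and B3gnt7, a glycosyltransferase gene, by 0.45 ± 0.10. Leaving out the second Gabpb1 DMSO library reduced the higher genes to 4, and of the 10 named ones Lef1 alone then kept its call. Leaving out the first Gabpb1/b2 dTAG-13 library left 3, whereas without the second Gabpb1/b2 DMSO library there were 49.

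**Figure D5:**
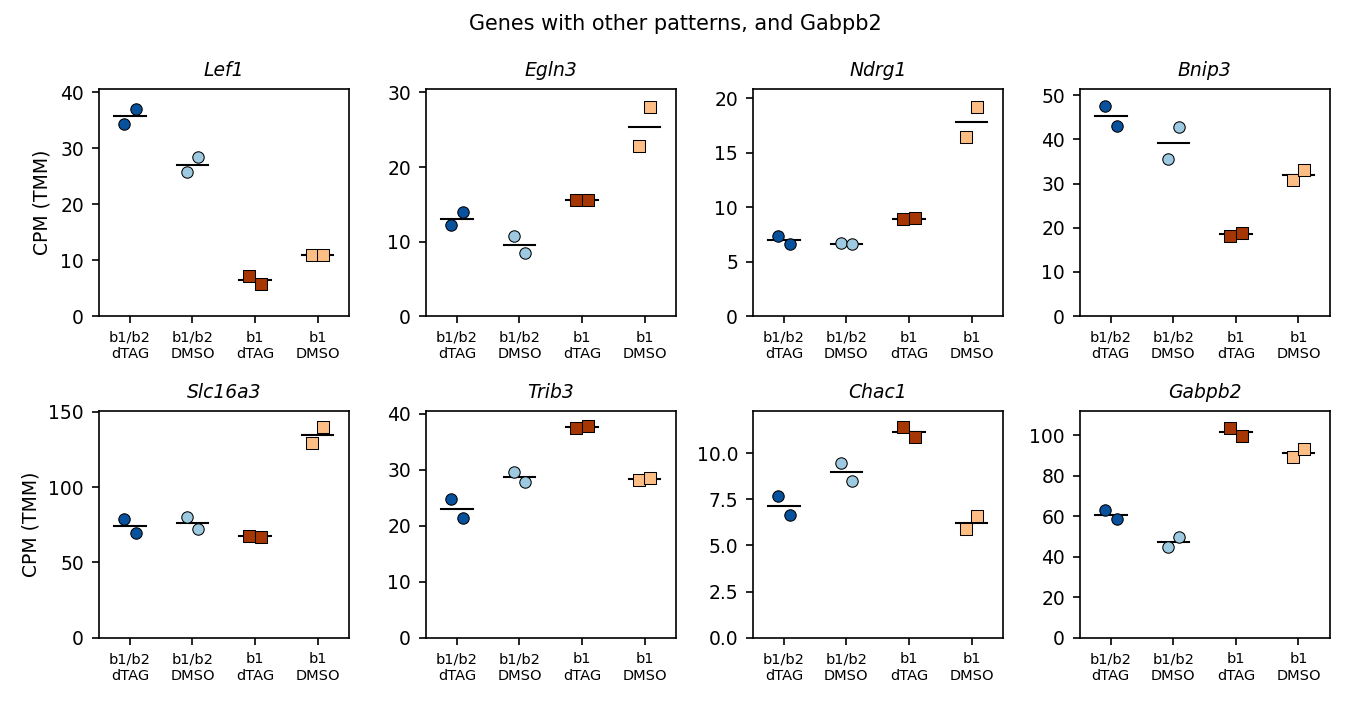
CPM in each library of 5 genes with a higher difference (Lef1, Egln3, Ndrg1, Bnip3 and Slc16a3), of Trib3 and Chac1 with a lower one, and of Gabpb2, with the 2 libraries of a group as points and their mean as a bar. In the higher genes the dTAG-13 libraries of the Gabpb1 line are below its DMSO libraries, while those of the Gabpb1/b2 line are near or above theirs; Gabpb2 is lower in all 4 libraries of the Gabpb1/b2 line than in any of the Gabpb1 line.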

How the data were processed

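RNA-seq of 3 mouse embryonic stem cell lines and SLAM-seq of the Gabpa line were used, 26 of 92 samples, grouped by the labels; the others were not analysed here. The deposited RNA-seq tables hold RSEM expected counts, estimated counts per gene with fractions, and TPM, which the authors' deposited tables scale per transcript length and library. Per the file headers, slamdunk 0.4.3 made the SLAM-seq tables, whose counts of reads with T-to-C conversions were used. Per the submitters' processing notes, the tools for RNA-seq include Trim Galore 0.6.7, STAR 2.7.11a and RSEM 1.3.1, with build mm39. How strand was handled is not given there.

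Expected counts were rounded to whole numbers. All 12 RNA-seq libraries were fitted together with edgeR 4.0.16 in R 4.3.3, with 1 mean for each group, TMM scaling and filterByExpr (minimum count 10, total 15), which kept 16396 genes; the 14 SLAM-seq libraries were fitted apart, with 15887 genes. The common biological coefficient of variation was 0.0608 in RNA-seq. Contrasts were tested with the quasi-likelihood test and Benjamini-Hochberg adjustment across every gene fitted, with 0.05 as the limit for a call; p-values measure only the spread between duplicates. Standard errors are the absolute log2 fold change over the square root of the F statistic. CPM values in the text were computed with TMM-scaled library sizes. Converted reads numbered 0.94 to 4.25 M per SLAM-seq library.

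The text names the GABP subunits, the 15 lower and 10 higher genes of smallest p averaging 3 or more in log2 CPM and with no overlap between the lines' dTAG-13 over DMSO ratios (predicted genes, clones and pseudogenes left out), the 5 most negative of these, and up to 3 called members of each of 27 gene lists; Pgk1-rs7, Rpf2, Nip7, Rrp12, Atf4 and Sqle were named after their values were seen. The genes and lists were chosen with earlier results of these data known. On simulated data with known differences between the lines, the test called 32.8% of genes with a log2 difference of 0.585, 59.7% at 1 and 77.3% at 2, and 11 of 15964 unchanged genes. The simulation gave a gene the same spread in all groups, so it lacks the wider spread of the Gabpb1/b2 DMSO duplicates. Of 56953 gene IDs, 52029 had a symbol. Alternatives were DESeq2 1.42.0, its size factors in edgeR, other filters, the 8 libraries alone, limma 3.58.1 voom with quality weights, replicate blocks and leaving out each library.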

Additional observations from a re-analysis of the deposited data

Results flagged for a closer look

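The named genes below were picked out because the response to 12 h dTAG-13 in the Gabpb1/b2 line and that in the Gabpb1 line differed by the test of the difference itself (edgeR's quasi-likelihood test, adjusted p under 0.05), with 2 libraries per group. Each value is the difference in log2 fold change, Gabpb1/b2 line minus Gabpb1 line.

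It was lower for Kti12 (-2.24), Usp11 (-1.92), Ppid (-1.15), Exosc3 (-1.87), Nek9 (-1.41), Exoc3 (-1.69), Cops7a (-1.18), Thoc5 (-1.17), Dlst (-1.29), Minpp1 (-1.85), Itpa (-1.39), Eaf1 (-1.01), Idh3b (-0.92), Mettl6 (-1.39), Ngrn (-1.43), Wdr3 (-0.93), Etv3 (-1.85), Ebna1bp2 (-0.79), Mrpl53 (-1.21), Mrpl27 (-1.19), Timm23 (-0.63), Pomp (-0.82), Trib3 (-0.72), Ercc3 (-0.53), Wdr24 (-0.64), Rpf1 (-0.71), Thumpd3 (-0.57), Rfc2 (-0.47), Psmb4 (-0.45), Chac1 (-1.17), Slc6a9 (-1.01) and Psma6 (-0.42).

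It was higher for Lef1 (1.16), Egln3 (1.14), Ndrg1 (1.08), Bnip3 (1.00), Pfkfb3 (1.03), Igfbp4 (0.87), Ina (0.54), Slc16a3 (0.97), Egln1 (0.64) and B3gnt7 (0.45).

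The call held for 24 of these 42 genes in all settings tried, 23 lower ones and Lef1, and for 18 it was lost in at least 1, with no change of sign. Those 18 were Ercc3, Wdr24, Rpf1, Thumpd3, Rfc2, Psmb4, Psma6, Chac1 and Slc6a9 among the lower genes and Egln3, Ndrg1, Bnip3, Pfkfb3, Igfbp4, Ina, Slc16a3, Egln1 and B3gnt7 among the higher ones.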

How the results depend on the processing

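With 2 libraries per group the counts are limited by replication, and they are the least certain values here. None of the 152 lower genes changed sign in any setting in which it was tested. With 1 library left out this was largely set in advance, since the lines' dTAG-13 over DMSO ratios did not overlap for these genes. Where leaving out a library left 1 in its group, that library was assumed to vary like the other groups. Lower and higher genes numbered 172 and 16 with DESeq2, 151 and 15 with its size factors, 263 and 59 with no low-count filter, 169 and 11 at a log2 CPM averaging 3 or more, 154 and 18 from the 8 libraries alone and 192 and 20 with quality weights, which were 0.443 and 0.498 for the Gabpb1/b2 DMSO libraries. Of the 152, DESeq2 called 142. Leaving out 1 library gave 84 to 284 lower and 3 to 49 higher genes: 84 without the first Gabpb1/b2 dTAG-13 library, 88 to 97 when any 1 of the 4 Gabpb1 libraries was left out and 284 without the second Gabpb1/b2 DMSO library.

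The deviations of same-numbered dTAG-13 and DMSO libraries from their group means correlated at -0.01, 0.03 and -0.07 in the Gabpb1/b2, Gabpb1 and Gabpa lines, so the libraries share a number and no more. A replicate block gave 132 lower and 15 higher genes, and a block within each line 133 and 13.

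The calls in the Gabpb1/b2 line numbered 2097 (1162 to 2551 with 1 library left out) and in the Gabpb1 line 1106 (341 to 1617), and with quality weights the order turned, at 1558 and 3045. The share of the median Gabpa-line fall was 39.1% and 22.1% with DESeq2 in the Gabpb1/b2 and Gabpb1 lines and 38.9% and 22.0% with its size factors, 42.9% in the Gabpb1/b2 line at a log2 CPM averaging 3 or more and 22.5% in the Gabpb1 line from the 8 libraries alone; with 1 library left out it was 38.2% to 40.5% and 20.6% to 23.2%. The share of lower genes that fell in the Gabpa line was 85.2% with no low-count filter and 87.7% to 96.0% with 1 library left out. In new RNA the shares with 1 library left out were 25.3% to 38.4% at 1 h, 45.0% to 60.5% at 2 h, 51.3% to 70.9% at 4 h and 73.6% to 92.5% at 12 h, and 80.8% at 12 h with no low-count filter. The promoter core was in 63.8% to 80.3%, lowest without the second Gabpb1/b2 DMSO library, and was in 73.9% among genes with a single listed start. Leaving out Gabpa-line libraries, the single-start genes and the hypoxia list were chosen after seeing the data. The cause of these shifts was not tested.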

Other observations

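Several of the higher genes are known targets of hypoxia-inducible factor, so a list of 34 hypoxia-response genes was drawn up after their values were seen and is described with no test. The 33 symbols measured had 34 gene IDs. In the difference between the Gabpb1/b2 and Gabpb1 lines 7 IDs were higher (20.6%, against 0.0854% of all genes) and 0 lower (against 0.927%). The median was 0.25, and 29 were above 0, where 49.9% of all genes were below 0. The list holds the higher genes that prompted it, so these counts and its falls in the Gabpb1 line lend it no support. The 7 include Ankrd37, a small ankyrin-repeat gene, at 1.60, with responses of 0.37 in the Gabpb1/b2 line and -1.23 in the Gabpb1 line. In the Gabpb1/b2 line 1 of the 34 fell and 1 rose (2.94% each, against 9.26% and 3.53% of all genes). In the Gabpb1 line 11 fell (32.4%, against 5.46%) and 0 rose. In the Gabpa line 10 fell and 8 rose (29.4% and 23.5%, against 21.9% and 24.6%). The falls in the Gabpb1 line extended to genes not called in the difference, such as the glucose transporter gene Slc2a1, which responded by -0.20 in the Gabpb1/b2 line and -0.55 in the Gabpb1 line, and Ldha, the lactate dehydrogenase gene, at 0.02 and -0.30. Vegfa, the growth factor gene of the list, had -0.16 and 0.14, neither of them called. For Ndrg1 and Egln3 the untreated level was itself lower in the Gabpb1/b2 than in the Gabpb1 line, by -1.42 and -1.39 on the log2 scale, and the part this plays in the difference was not tested.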
